A study of Mus musculus with 12 samples.

Results

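The *Sall*, *Msx*, *Lhx*, *Alx* and *Tfap2* genes examined here are 10 transcription factor genes of the distal limb bud, *Sall1*, *Sall2*, *Sall3*, *Sall4*, *Msx1*, *Msx2*, *Lhx2*, *Lhx9*, *Alx4* and *Tfap2b*. They were taken by gene symbol from the 36186 genes of the table, and all 10 were found. RNA-Seq gave their levels in mouse forelimb zeugopod, the segment that holds the radius and ulna, at E15.5. Of 12 libraries, 9 came from wild type (WT) embryos, with 3 for each chondrocyte compartment (resting, proliferative, hypertrophic), and 3 from *aadd* mutants. The *aadd* mutants are homozygous for frameshift mutations in *Hoxa9*, *Hoxd9*, *Hoxa10*, *Hoxd10*, *Hoxa11* and *Hoxd11*, each made by a loxP insertion with a small deletion in the first exon, in every cell of the animal. Cells were captured by laser from sections. Some perichondrium, the sheath of the cartilage, came with the chondrocytes.

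The labels give the *aadd* libraries the compartment name resting, but the study took the whole chondrocyte population of the small mutant zeugopod as one sample. A comparison of *aadd* with WT resting therefore sets a whole element against 1 compartment, and mutation and dissection cannot be told apart. The labels call the hypertrophic libraries hyperproliferative. Their summed hypertrophic chondrocyte markers, among them *Col10a1*, were 1935 to 3872 NRPKM, against 697 to 982 in WT proliferative. The sums were 80.7 to 112 NRPKM in WT resting and 58.2 to 89 in *aadd*. These markers were thus highest in the libraries labelled hyperproliferative but not confined to them, and the study's name hypertrophic is used. Cartilage matrix markers were present in all libraries, with sums of 714 to 4833 NRPKM. The frameshift alleles still gave RNA. *Hoxa11*, for example, was at 11.3 to 30.5 NRPKM in WT resting and 5.17 to 11.1 in *aadd*, and *Hoxd11* at 4.34 to 7.31 and 25.1 to 35.4, so these levels do not check the genotype.

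As background, *Sall* genes encode zinc finger proteins that recruit the NuRD complex, a chromatin remodelling and histone deacetylase complex, and *SALL1* and *SALL4* mutations cause human limb malformations. *Msx1* and *Msx2* encode homeodomain repressors that respond to BMP signals in limb mesenchyme and in skull bone. *Lhx2* and *Lhx9* encode LIM homeodomain proteins that act with the cofactor *Ldb1* in distal limb mesenchyme and help it to respond to the apical ectodermal ridge, the signalling rim of the limb bud. *Alx4* encodes an anterior limb homeodomain protein that restrains *Shh*, and *Tfap2b* encodes an AP-2 factor.

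Values are NRPKM, which is RPKM (reads scaled by gene length and library depth) scaled further between libraries by the authors. They are per length, which puts different genes on one scale. The RNA was amplified, and differences between genes in amplification or mapping are not removed, so shares within a family are approximate. The total depth of each library is not given in the values used here. It was read from the smallest steps in the values, by which 1 read on 1 kb was worth 0.309 to 0.530 NRPKM depending on the library. A gene was tested where at least 3 of the 12 libraries reached 5 NRPKM, as the study did, and 10936 genes were. Of the 10 genes, 5 were tested, *Sall1*, *Sall2*, *Msx2*, *Lhx2* and *Alx4*. *Sall1* reached 5 NRPKM in the 3 *aadd* libraries and in none of the 9 WT libraries, so it entered through the group in which it was high and had to differ. *Msx2* reached it in the 3 WT proliferative libraries, in hypertrophic replicate 1 and in none of the resting or *aadd* libraries, so it too entered mainly through the group in which it was high. For both, values without the filter are given as well, and counts of called genes that include them are descriptions. The other 5 are given as values. *Lhx9* reached 5 NRPKM in 1 library and the rest in none.

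**Figure D1:**
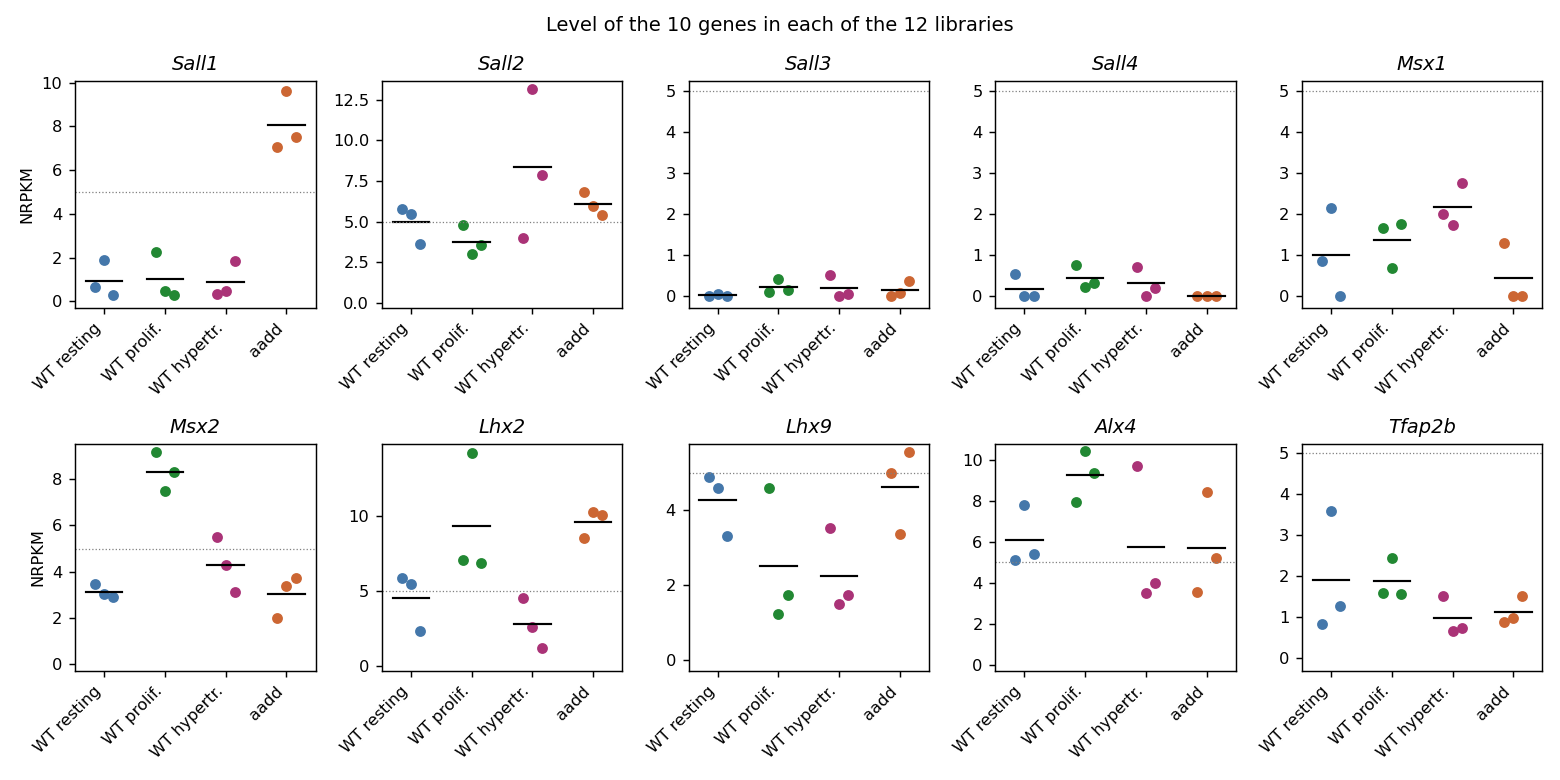
NRPKM of each of the 10 genes (vertical axis, linear) in the 12 libraries. Points are libraries, black lines are means of 3, and the dotted line marks 5 NRPKM. *Sall1* is high in the 3 *aadd* libraries, *Msx2* in the 3 WT proliferative libraries, and *Sall3* and *Sall4* are near 0 throughout.

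Called genes had an unadjusted *P* up to 0.05 in limma's moderated test. They also had a fold change (FC) of at least 2 between WT compartments or 1.5 between *aadd* and WT resting. These limits are the study's, with the FC of 2 applied here to hypertrophic against resting as well. For *aadd* the study also ran the Audic Claverie test on pooled reads, which found more differences and was not run here. *Msx2* was called in proliferative against resting, *Lhx2* in hypertrophic against proliferative and *Sall1* and *Lhx2* in *aadd* against resting. The 250 bases before the start sites of these 3 genes are shown so that the sequence next to each changing gene can be read. They are from RefSeq on GRCm38.p6, the build of the deposited coordinates, in the direction of transcription, and each start site is the 5′ end of the gene in the deposited table. Of the 10 genes, 7 had a window in the RefSeq set. Capitals mark matches on either strand to TTTAT or TTTAC, which posterior Hox proteins prefer, TAATTA, a homeodomain core, CCAAT, and GGGCGG, the GC box.
Sall1, chr8:89044163-89044412, - strand: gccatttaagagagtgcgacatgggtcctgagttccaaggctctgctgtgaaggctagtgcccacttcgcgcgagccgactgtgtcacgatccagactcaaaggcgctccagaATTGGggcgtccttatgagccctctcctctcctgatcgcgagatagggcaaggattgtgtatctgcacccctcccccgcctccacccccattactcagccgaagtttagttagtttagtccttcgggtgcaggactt
Msx2, chr13:53472781-53473030, - strand: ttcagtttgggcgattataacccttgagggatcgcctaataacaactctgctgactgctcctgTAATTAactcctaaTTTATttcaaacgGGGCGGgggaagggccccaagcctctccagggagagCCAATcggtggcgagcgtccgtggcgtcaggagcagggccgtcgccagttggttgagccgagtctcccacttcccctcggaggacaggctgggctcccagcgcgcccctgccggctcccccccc
Lhx2, chr2:38339031-38339280, + strand: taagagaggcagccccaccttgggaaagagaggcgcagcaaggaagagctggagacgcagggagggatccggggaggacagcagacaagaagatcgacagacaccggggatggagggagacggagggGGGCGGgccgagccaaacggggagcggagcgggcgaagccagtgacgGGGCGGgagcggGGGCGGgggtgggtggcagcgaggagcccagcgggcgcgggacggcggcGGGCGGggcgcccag
The *Sall1* window held 1 CCAAT and none of the other motifs. The *Msx2* window held 1 match to TAATTA, 1 match to TTTAT, 1 match to CCAAT and 1 GC box. The *Lhx2* window held 4 GGGCGG and none of the others, in a sequence with 72.8% G and C. Among all 32851 windows of this length, TTTAT was found in 37.3%, TTTAC in 28.3%, TAATTA in 4.8%, CCAAT in 33.8% and GGGCGG in 32.7%. The windows held 13 (*Sall1*), 16 (*Msx2*) and 25 (*Lhx2*) CpG against a median of 6. A match describes letters and not binding.

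*Sall1* (gene 58198, chr8:89027243-89044162, minus strand, mm10) was low in every WT library and high in every *aadd* library. In WT resting it was at 0.644, 1.90 and 0.298 NRPKM in replicates 1 to 3, from 10, 24 and 4 reads. In WT proliferative it was at 2.25, 0.497 and 0.302 NRPKM, and in WT hypertrophic at 0.326, 0.470 and 1.85. In *aadd* it was at 7.04, 9.61 and 7.52 NRPKM, from 103, 111 and 113 reads. The lowest *aadd* library stood above the highest of all 9 WT libraries, which the filter fixed for a gene that entered in this way. In bulk RNA, fewer cells that express a gene and less RNA per cell cannot be told apart.

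The mean of *Sall1* was 8.05 ± 1.37 NRPKM in *aadd* and 0.948 ± 0.844 in WT resting (SD, n = 3 each), a ratio of 8.50. The log2 fold change of log2(NRPKM + 0.1) was 3.27 (SE 0.54), with a 95% interval of 1.98 to 4.56. Limma's unadjusted *P* was 0.00056, and the Benjamini-Hochberg adjusted *P* over 10936 genes was 0.13. Without the filter, over 21627 genes, they were 0.0027 and 0.31. In *aadd* against resting 6.56% of the genes tested were called, 3.78% as higher and 0.119% passed adjustment at 0.05. Of the 5 genes tested, *Sall1* and *Lhx2* were called, both as higher, and none passed adjustment. Since *Sall1* had to differ, this count is not set against the share of all genes. An exact permutation test of 3 libraries against 3 cannot go below *P* = 0.1. Between WT compartments *Sall1* had log2 fold changes of -0.02 (proliferative over resting), -0.08 (hypertrophic over proliferative) and -0.11 (hypertrophic over resting), each with an interval that spanned at least 1.76 on both sides of 0.

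Posterior *Hox* genes outside the mutation were also high in the libraries with high *Sall1*. *Hoxd13*, which marks the hand and foot plate, was at 0.315 to 0.503 NRPKM in WT resting, at most 1.70 in the other WT libraries, and 17.6 to 31.2 in *aadd* (adjusted *P* = 0.0017 in limma). Like *Sall1*, it passed the filter only through the *aadd* libraries and had to differ. *Hoxa13* was at 0 to 0.635 NRPKM in WT and 2.72 to 5.09 in *aadd*, and *Hoxd12* at 0 to 1.05 and 4.71 to 7.21. These values stand beside the *Sall1* result, and their part in it was not tested.

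*Sall2* (gene 50524, chr14:52311177-52328670, minus strand), the family member with the highest level in WT, was not called in any comparison. It was at 5.77, 5.46 and 3.66 NRPKM in WT resting, 4.80, 2.99 and 3.57 in proliferative, 4.01, 13.1 and 7.87 in hypertrophic and 6.80, 5.97 and 5.43 in *aadd*. The hypertrophic libraries spread from below the highest resting library to above all others. The log2 fold change was 0.30 (95% interval -0.21 to 0.82) in *aadd* against resting, and 0.99 (-0.10 to 2.07) in hypertrophic against proliferative. The latter depended on single hypertrophic libraries. Without replicate 1 the change was 1.43, with an unadjusted *P* of 0.0055 in limma and an adjusted *P* of 0.039. Without replicate 2, which held the value of 13.1 NRPKM, it was 0.58, with an unadjusted *P* of 0.18 in limma. Markers of other cells were high in replicates 2 and 3, as given with *Lhx2* below, and their part was not tested.

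*Sall3* (on chromosome 18) and *Sall4* (gene 99377, chr2:168748332-168767201, minus strand) were at the limit of detection. *Sall3* had 0 to 9 reads in a library and at most 0.513 NRPKM. *Sall4*, a stem cell and early limb factor, had 0 to 10 reads and at most 0.753 NRPKM. It had 0 reads in the 3 *aadd* libraries, which allows up to 0.207 to 0.269 NRPKM (3 reads, counting error only), and 2 of 3 WT resting libraries were at 0 too. A 526-base stretch of its exons overlaps those of *Gm14261*, and reads there cannot be assigned. Neither gene entered the filtered test. Without the filter *Sall3* met the criteria in proliferative against resting (unadjusted *P* = 0.024, adjusted *P* = 0.36 in limma), from 2 to 6 reads in a proliferative library and 0 to 1 in a resting one, and *Sall4* met them in no comparison.

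*Sall1* took a larger share of its family in *aadd*. It made up 7.51% to 25.6% of the summed *Sall* NRPKM in WT resting, 6.98% to 28.5% in proliferative and 3.45% to 18.6% in hypertrophic, and 50.9% to 61.4% in *aadd*. The sum itself was 6.11 ± 1.88 NRPKM in WT resting and 14.3 ± 1.2 in *aadd* (SD, n = 3 each). *Sall2* made up 73.6% to 92.5% of it in WT resting and 38.2% to 49.1% in *aadd*, while its own level was 4.97 and 6.07 NRPKM on average.

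**Figure D2:**
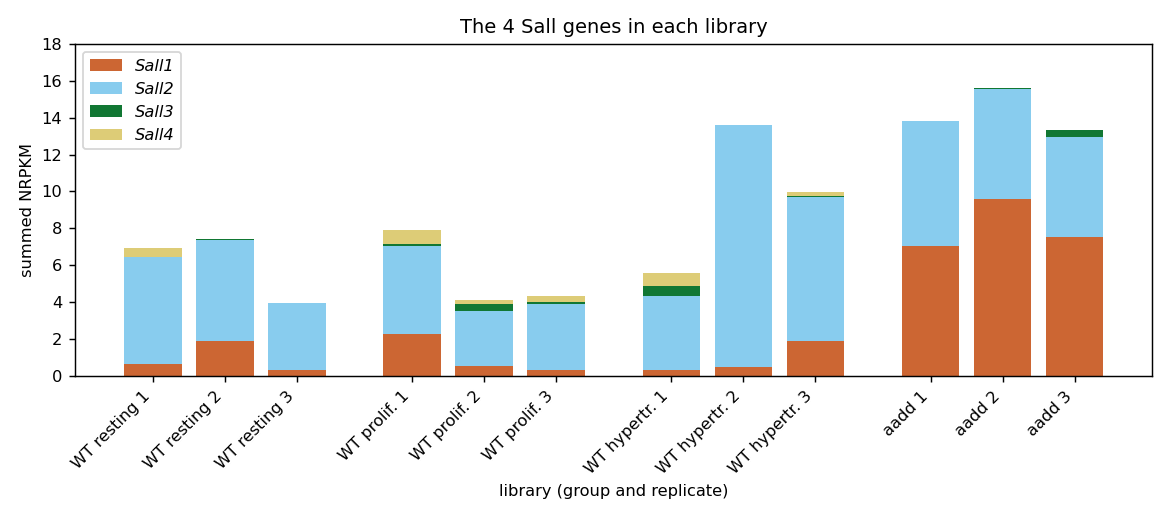
Summed NRPKM of *Sall1*, *Sall2*, *Sall3* and *Sall4* (vertical axis, stacked) in each of the 12 libraries (horizontal axis). The *Sall1* part is 50.9% to 61.4% of the bar in the *aadd* libraries and at most 28.5% in WT.

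The 13 listed subunits of NuRD, the complex that *Sall* proteins recruit, were all tested, and 0 of 13 were called in each of the 4 comparisons. Of all genes tested 5.53% (proliferative against resting), 9.67% (hypertrophic against proliferative), 13% (hypertrophic against resting) and 6.56% (*aadd* against resting) were, so for a list of 13 a count of 0 is near the background. Their summed level was 365 to 433 NRPKM in *aadd* and 399 to 491 in WT resting. Their median log2 fold change was -0.06 in *aadd* against resting and -0.14 in proliferative against resting, beside 0.01 and -0.06 over all genes tested.

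*Msx2* (gene 17702, chr13:53466881-53472780, minus strand), the BMP-responsive homeodomain repressor, was highest in the proliferative compartment. It was at 3.44, 3.04 and 2.89 NRPKM in WT resting, from 16 to 22 reads. In WT proliferative it was at 9.19, 7.50 and 8.33 NRPKM, from 31 to 52 reads. The libraries of the groups did not overlap, which held for 9.83% of genes tested with proliferative higher. Since *Msx2* entered mainly through the proliferative libraries, the filter favoured this separation, and it is a description only. The means were 8.34 ± 0.85 and 3.12 ± 0.29 NRPKM (SD, n = 3 each), a ratio of 2.67.

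In proliferative against resting, 5.53% of all genes tested were called, 2.56% as higher, and 0.622% passed adjustment. Of the 5 genes tested here 1 was called, *Msx2*. Its log2 fold change was 1.39 (SE 0.16, 95% interval 0.99 to 1.78), with limma's adjusted *P* = 0.027. The adjusted *P* was 0.072 with the replicate number as a block, 0.079 without the filter, 0.063 with a variance trend and 0.060 to 0.146 when any 1 of the 6 libraries was left out, so passing adjustment depends on these choices, while the unadjusted *P* was at most 0.00077 in all 15 settings. In the hypertrophic libraries *Msx2* was at 5.51, 4.29 and 3.11 NRPKM, all below the lowest proliferative library, as were 10.9% of genes tested. The filter favoured this separation too. The difference of -0.97 on the log2 scale (unadjusted *P* = 0.0073, adjusted *P* = 0.16 in limma) was a fold of 1.96 and thus short of the FC of 2. In *aadd* it was at 1.99, 3.37 and 3.72 NRPKM, which overlaps WT resting, and the log2 fold change was -0.09 (95% interval -0.69 to 0.51).

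*Msx1* (gene 17701, chr5:37820491-37824585, minus strand), which is related to *Msx2*, was under the limit for testing. It was at 0.848, 2.16 and 0 NRPKM in WT resting, 1.66, 0.677 and 1.76 in proliferative and 1.99, 1.73 and 2.77 in hypertrophic. It was at 1.30, 0 and 0 NRPKM in *aadd*. No library had more than 16 reads of it, and the groups overlapped except that hypertrophic lay above *aadd*. *Msx2* made up 58.5% to 100% of the summed *Msx1* and *Msx2* NRPKM in WT resting, 82.5% to 91.7% in proliferative, 52.9% to 73.5% in hypertrophic and 60.5% to 100% in *aadd*.

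BMP response genes were listed because *Msx* genes are read as BMP targets, and 10 of 10 were tested. None was called in proliferative against resting, where 5.53% of all genes tested were, so for a list of 10 a count of 0 is near the background. Their median log2 fold change was -0.51 beside -0.06 over all genes. *Bmp4*, a ligand, rose there by 1.59 (adjusted *P* = 0.11 in limma), from 5.22 to 11 NRPKM in resting to 17.8 to 31.8 in proliferative. In hypertrophic against proliferative, *Smad6*, an inhibitory Smad, was the 1 called, beside 9.67% of all genes tested, with a log2 fold change of 2.13. In hypertrophic against resting *Bambi* (3.63 to 9.14 NRPKM in resting, 15.1 to 24.1 in hypertrophic) and *Smad6* (log2 fold change 1.28) were called as higher and *Id4* (-1.94) and *Atoh8* (-1.31) as lower. Of all genes tested 13% were called there. In *aadd* against resting 1 of 10 was called, beside 6.56% of all genes tested. It was *Smad9*, which fell by 0.65 on the log2 scale. The part of BMP signals in the *Msx2* result was not tested.

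*Lhx2* (gene 16870, chr2:38339281-38369728, plus strand), the LIM homeodomain factor, was called in both a compartment and the mutant comparison. It was at 5.90, 5.48 and 2.37 NRPKM in WT resting and 7.07, 14.2 and 6.88 in proliferative. In hypertrophic it was at 4.57, 2.64 and 1.19 NRPKM, from 10 to 30 reads, and in *aadd* at 8.56, 10.3 and 10.1, from 64 to 81 reads. Every hypertrophic library was below every proliferative one, as in 10.9% of genes tested. Every *aadd* library was above every WT resting one, as in 8.08% of genes tested, and the *aadd* libraries lay within the proliferative range. No exon base of *Lhx2* is shared with the 2 genes that overlap its locus.

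In hypertrophic against proliferative, 9.67% of the genes tested were called, 4.34% as lower, and of the 5 genes *Lhx2* was. It fell by 1.81 on the log2 scale (SE 0.53, 95% interval -3.10 to -0.53), from 9.38 ± 4.17 to 2.80 ± 1.69 NRPKM (SD, n = 3 each). Limma's unadjusted *P* was 0.013 and the adjusted *P* 0.18. In this comparison 0 of the 10936 genes passed adjustment (0%), while 2115 had an unadjusted *P* under 0.05 in limma, the only tool run. With all 12 libraries in one fit 705 genes passed adjustment, and 1905 did without hypertrophic replicate 1. Hypertrophic replicate 1 stood apart from replicates 2 and 3, at root mean square distances of 1.11 and 1.04 on the log2 scale, against 0.613 between those 2. Without it, 2007 of the 10936 genes tested were called. Among them were 4 of the 5 genes, namely *Lhx2* (-2.25, adjusted *P* = 0.034 in limma), *Msx2* (-1.17, 0.025), *Alx4* (-1.28, 0.017) and *Sall2* (1.43, 0.039). Replicates 2 and 3 are also the hypertrophic libraries in which markers of other cells were high. The summed osteoclast and macrophage markers were at 55, 1416 and 1049 NRPKM in replicates 1, 2 and 3, against 30.8 to 42.5 in proliferative. Endothelial markers were at 63.3, 291 and 222 NRPKM against 14.8 to 32.2. The erythroid markers were at 63.4, 373 and 411 NRPKM against 61.5 to 146, and the part of these cells in the result was not tested. Cartilage matrix markers also fell from proliferative to hypertrophic. Of 10 tested, 9 were called as lower and 0 as higher, with a median log2 fold change of -1.75. Their sums were 2976 to 4833 NRPKM in proliferative and 714 to 2969 in hypertrophic. The part of this fall in the *Lhx2* result was not tested.

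In *aadd* against resting, *Lhx2* rose by 1.16 on the log2 scale (SE 0.35, 95% interval 0.33 to 1.98), a mean ratio of 2.10. Its means were 9.64 ± 0.94 and 4.58 ± 1.93 NRPKM (SD, n = 3 each). Limma's unadjusted *P* was 0.013 and the adjusted *P* 0.35. In proliferative against resting the change was 1.04 (95% interval -0.01 to 2.09), which was not called (unadjusted *P* = 0.052 in limma, adjusted *P* = 0.30), but with the replicate number as a block it was (unadjusted *P* = 0.021, adjusted *P* = 0.19). In hypertrophic against resting 13% of genes tested were called but none of the 5 genes, and *Lhx2* was at -0.77 (95% interval -2.12 to 0.57). The comparisons with WT resting share its 3 libraries.

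*Lhx9* (gene 16876, chr1:138825186-138847579, minus strand), which acts alongside *Lhx2* in the limb bud, was under the limit for testing. It was at 4.89, 4.58 and 3.29 NRPKM in WT resting, 4.60, 1.22 and 1.72 in proliferative, 3.51, 1.48 and 1.72 in hypertrophic and 4.98, 3.35 and 5.55 in *aadd*. Its levels overlapped between every pair of groups. *Lhx2* made up 41.8% to 54.7% of the summed *Lhx2* and *Lhx9* NRPKM in WT resting, 60.6% to 92.1% in proliferative, 40.9% to 64.1% in hypertrophic and 63.2% to 75.5% in *aadd*. The proliferative and *aadd* shares thus lay above the resting shares in every library. No rate over other gene pairs was computed, so this is a description. Mean *Lhx9* was 4.25 NRPKM in resting and 4.63 in *aadd*, so the *aadd* share largely repeats the *Lhx2* values.

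Of the 10 listed LIM cofactors, 7 were tested, and 2 were called in *aadd* against resting, where 6.56% of all genes were. In *aadd* against resting *Lmo4*, a LIM-only protein that competes for *Ldb1*, was called as higher (0.64, from 19.7 to 21.8 NRPKM in resting to 25.7 to 37 in *aadd*). *Ldb2*, a relative of *Ldb1*, was called as lower (-0.97, from 8.68 to 16.4 NRPKM to 5.33 to 5.67). Limma's adjusted *P* was 0.35 for *Lmo4* and 0.32 for *Ldb2*. *Ldb2* was called as higher in hypertrophic (22.3 to 35.6 NRPKM) against proliferative (8.07 to 18.4), and in hypertrophic against resting *Ldb2* was higher (1.47) and *Ssbp2* lower (-1.47). Of all genes tested 9.67% were called in hypertrophic against proliferative and 13% in hypertrophic against resting. No LIM cofactor was called in proliferative against resting, where 5.53% of all genes tested were.

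**Figure D3:**
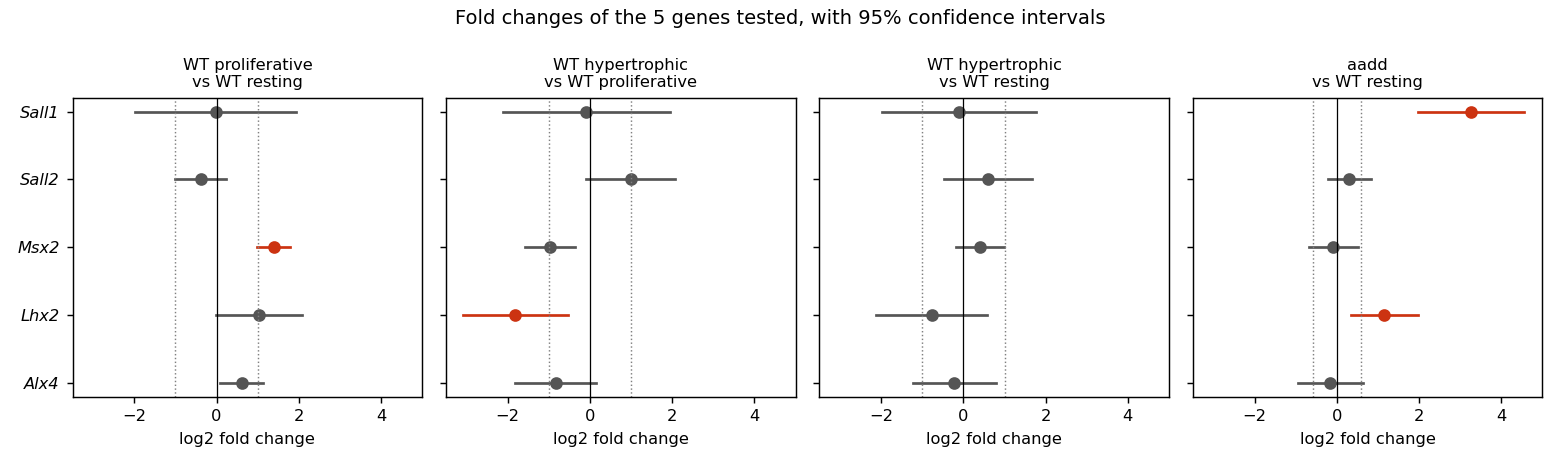
Log2 fold change (horizontal axis) of the 5 genes tested in the 4 comparisons, with 95% confidence intervals. Dotted lines mark the FC required and red marks the genes called, which were *Msx2* in the first panel, *Lhx2* in the second, none in the third and *Sall1* and *Lhx2* in the fourth.

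*Alx4* (gene 11695, chr2:93642434-93681339, plus strand) was not called in any of the 4 comparisons. It was at 5.12, 7.78 and 5.41 NRPKM in WT resting, 7.95, 10.4 and 9.34 in proliferative, 9.71, 3.48 and 3.98 in hypertrophic and 3.54, 8.43 and 5.18 in *aadd*. Every proliferative library was above every resting one, as in 9.83% of all genes tested, and the log2 fold change of 0.61 (95% interval 0.08 to 1.13, unadjusted *P* = 0.030 and adjusted *P* = 0.26 in limma) was under the FC of 2. It was -0.16 (95% interval -0.95 to 0.64) in *aadd* against resting. Its locus overlaps *Ext2*, with no exon base in common.

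*Tfap2b* (gene 21419, chr1:19208914-19238734, plus strand) was at 0.840, 3.58 and 1.27 NRPKM in WT resting, 1.60, 2.45 and 1.56 in proliferative, 1.53, 0.671 and 0.729 in hypertrophic and 0.891, 0.987 and 1.52 in *aadd*. It was under the limit for testing. The lowest proliferative value, 1.56 NRPKM, was just above the highest of the hypertrophic (1.53) and *aadd* (1.52) libraries, and the resting libraries overlapped all 3 groups. Among 17 further members of these families, 1 was tested, *Tfap2a*, and 0 were called. *Tfap2a* was at 3.53 to 8.97 NRPKM in WT resting and 4.89 to 7.20 in *aadd*. *Alx1*, a relative of *Alx4*, was at most 2.85 NRPKM in any library.

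Over the 4 groups, limma's moderated F test called 3 of the 5 genes at an adjusted *P* under 0.05, against 13.8% of all genes tested. They were *Msx2* (adjusted *P* = 0.011), *Sall1* (0.028) and *Lhx2* (0.049). *Sall1* and *Msx2* entered through the groups in which they were high, so the count of 3 is a description. Without the filter *Msx2* stayed under 0.05 (0.042), and *Sall1* (0.071) and *Lhx2* (0.115) did not. *Sall1* was also above 0.05 with the replicate block (0.058), with a variance trend (0.065) and without any 1 of the 3 *aadd* libraries (0.084 to 0.095), without proliferative replicate 2 (0.0504) and without hypertrophic replicate 2 (0.063). *Lhx2* was above 0.05 without any 1 library (0.053 to 0.122) other than hypertrophic replicate 1 (0.012). *Sall2* (0.25) and *Alx4* (0.37) were not. In order of mean level, *Lhx2* (9.38 NRPKM) and *Alx4* (9.25) led in proliferative, *Sall2* (8.34) in hypertrophic, *Lhx2* (9.64) and *Sall1* (8.05) in *aadd* and *Alx4* (6.10) and *Sall2* (4.97) in resting. The ranges of the 2 genes named for a group overlapped in each case.

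Other genes of distal limb mesenchyme were listed for comparison, and 14 of 20 were tested. In *aadd* against resting 4 were called as higher, beside 3.78% of all genes tested, and 0 as lower, and the median log2 fold change was 0.54 beside 0.01 over all genes. *Hoxd13* passed the filter only through the *aadd* libraries and had to differ, so the count of 4 is a description. *Hoxd13* rose most, by 5.49. *Hand2*, a posterior bHLH factor, rose by 2.63, *Twist1*, a mesenchymal bHLH factor, by 1.39 and *Bmp4* by 0.87, with adjusted *P* of 0.45, 0.25 and 0.51. *Sall1* lay between *Hoxd13* and *Hand2*, and *Lhx2* between *Twist1* and *Bmp4*.

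**Figure D4:**
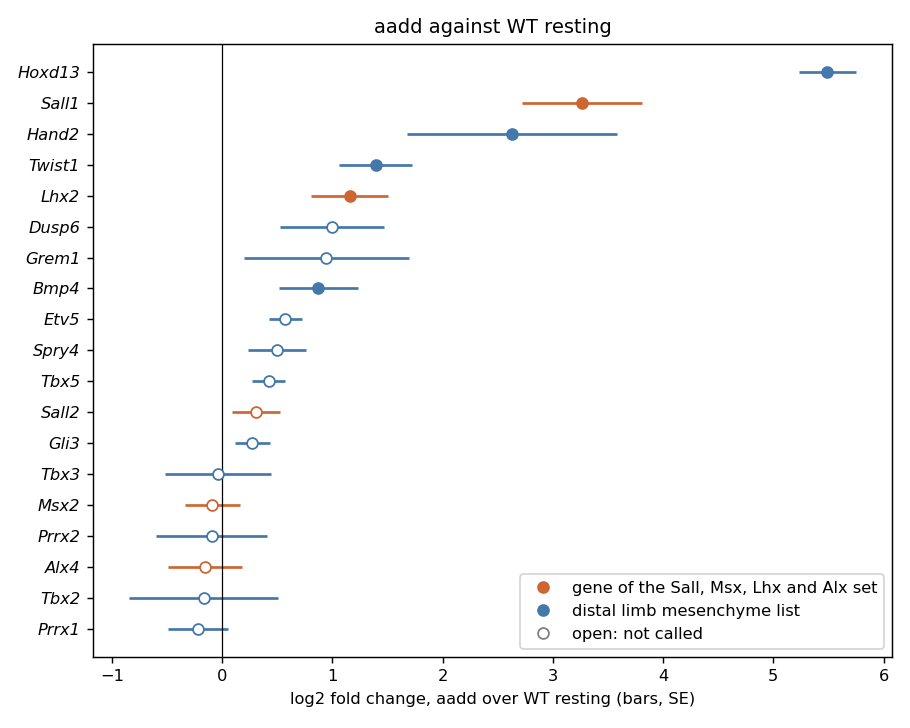
Log2 fold change of *aadd* over WT resting (horizontal axis, bars show SE) for the 14 tested genes of the distal limb list in blue and the 5 tested genes of the *Sall*, *Msx*, *Lhx* and *Alx* families in orange. Filled points were called, which were *Hoxd13*, *Sall1*, *Hand2*, *Twist1*, *Lhx2* and *Bmp4*.

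The same list, with 14 genes tested, also had members called between compartments. Of all genes tested 5.53% were called in proliferative against resting, 9.67% in hypertrophic against proliferative and 13% in hypertrophic against resting. In proliferative against resting *Tbx2* (3.41) and *Bmp4* (1.59) were higher and *Tbx5* (-1.96), the forelimb T-box factor, was lower. In hypertrophic against proliferative *Spry4* (2.60), *Dusp6* (2.26) and *Twist1* (1.68) were higher and *Grem1* (-2.40), a BMP antagonist, was lower. In hypertrophic against resting *Tbx2* (3.90), *Spry4* (2.78), *Twist1* (2.40) and *Bmp4* (1.90) were higher and *Grem1* (-3.54), *Tbx5* (-3.07) and *Gli3* (-1.14) were lower. *Tbx2* was at 0.110 to 0.724 NRPKM in WT resting and 0.053 to 0.504 in *aadd*, and was not called in *aadd* against resting.

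Markers of other tissue differed between *aadd* and resting as well. Of 8 tested joint interzone markers, 4 were called as higher, *Gdf6* (2.13), *Dcx*, *Gdf5* (1.44) and *Sfrp2*, beside 3.78% of all genes tested, and 0 as lower. The summed level of the 10 was 129 to 156 NRPKM in resting and 209 to 232 in *aadd*. Among perichondrium and fibroblast markers *Pdgfra* was called as higher and *Twist2* as lower, among tendon markers *Mkx* as higher, among muscle markers *Actc1* and among endothelial markers *Flt4*. Of the epidermal markers *Krt10* was called as lower, with sums of 8.67 to 198 NRPKM in resting and 5.83 to 6.70 in *aadd*, and of the hypertrophic chondrocyte markers *Panx3* was. None was called among the cartilage matrix, osteoclast and macrophage, erythroid, and Schwann cell and nerve markers. The part of these tissues in the *Sall1* and *Lhx2* results was not tested.

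The genes whose pattern was most like each gene tested were found by Pearson's *r* of log2(NRPKM + 0.1) over the 12 libraries, which share the compartments, so *r* is a description. For *Sall1* they were *Jun* (*r* = 0.85) and *Pcnx* (0.85), and over the 9 WT libraries alone *r* was 0.50 and 0.62. *Jun*, an AP-1 factor, was at 15.9 to 17.4 NRPKM in *aadd* and 5.37 to 11 in WT. For *Msx2* they were the ribosomal protein genes *Rpl41* (0.92) and *Rpl34* (0.91), for *Lhx2* *Dsel* (0.90) and *Parpbp* (0.90), for *Sall2* *Svep1* (0.93) and *Apip* (0.93), and for *Alx4* *Otx1* (0.97) and *4931406B18Rik* (0.96). Among the 10 genes themselves the closest pair was *Alx4* and *Tfap2b* (0.71), followed by *Msx2* and *Alx4* (0.67).

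**Figure D5:**
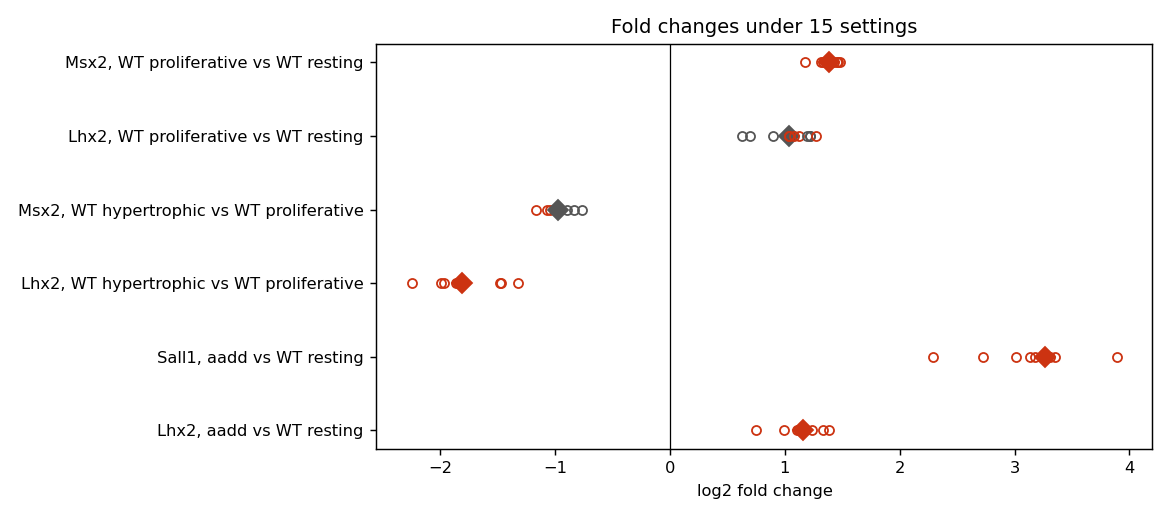
Log2 fold change (horizontal axis) of 6 results under 15 settings of the analysis, with the reported value as a diamond, the others as circles, and called values in red. *Msx2* in proliferative against resting, *Lhx2* in hypertrophic against proliferative and *Sall1* and *Lhx2* in *aadd* against resting were called in 15 of 15.

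Settings of the analysis left 4 of the calls by unadjusted *P* and FC in place. *Sall1* in *aadd* against resting ranged from 2.29 to 3.89 on the log2 scale, *Lhx2* there from 0.75 to 1.39, *Msx2* in proliferative against resting from 1.18 to 1.48 and *Lhx2* in hypertrophic against proliferative from -2.25 to -1.32, and each was called in 15 of 15 settings. *Lhx2* in proliferative against resting was called in 6 of 15 and *Msx2* in hypertrophic against proliferative in 4 of 15.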

How the data were processed

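Chondrocytes were captured by laser from E15.5 forelimb zeugopods and their amplified RNA was sequenced. The authors aligned reads to mm10, removed duplicate and multiply aligned reads and computed values in GeneSpring, and the submitters' processing notes name TopHat. The deposited values are RPKM, scaled further between libraries by the authors (NRPKM). The scaling and the use of strand are not given in the sources used here. From these values, log2(NRPKM + 0.1) was tested in limma 3.58.1 (R 4.3.3) over the 6 libraries of each pair of groups, after a filter of 5 NRPKM in 3 libraries (10936 genes), with Benjamini-Hochberg adjustment. The procedure was tested on simulated data. Tables and plots were made with pandas 2.3.3, numpy 2.4.6 and matplotlib 3.10.9 in Python 3.11.15.

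The value of 1 read was found from 1806 single-exon genes, and reads per gene from whole steps (tolerance 0.05 reads) or, for *Msx1*, from the longest GENCODE transcript. They cover counting error only.

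The genes named were the 10, the 2 most like each tested gene, *Hoxa13* and *Hoxd13*, and called genes of pathway and marker lists. *Hoxd12*, *Tfap2a*, *Alx1*, *Hoxa11* and *Hoxd11* were added after their values were seen. Genes and lists were chosen with earlier results of these data known. Deviations of same-numbered libraries correlated between WT resting and proliferative (*r* = 0.281, 0.179 and 0.198), so the numbers were taken to pair those. In the other comparisons at least 1 *r* was under 0.1. The reported fits did not use this pairing. With the replicate number as a block, limma's adjusted *P* of *Msx2* in proliferative against resting was 0.072, and *Lhx2* was called there.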

Additional observations from a re-analysis of the deposited data

How the results depend on the processing

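Values were recomputed with a pseudocount of 1, without the filter on low values, with the filter over the 6 libraries compared, after rescaling by the median of ratios or quantile normalization, with all 12 libraries in one fit, with the replicate number as a block, with a variance trend and without each library in turn. Of the 5 tested genes, 1 was called in proliferative against resting, 2 of all 10 were called without the filter (*Msx2* and *Sall3*, the latter from at most 6 reads), and 2 of the tested genes with the filter over the 6 libraries, by the median of ratios, by quantile normalization, with a variance trend and with the replicate block (*Msx2* and *Lhx2* in these 5). Leaving out a library gave 1 to 2 there. In hypertrophic against proliferative the 1 became 2 by the median of ratios and by quantile normalization, and 1 to 4 without a library. In hypertrophic against resting the 0 became 0 to 1 without a library, *Sall2* being called without hypertrophic replicate 1. Over the 4 groups the 3 became 1 without the filter, 2 with a variance trend (not *Sall1*) and 1 to 4 without a library. In *aadd* against resting the same 2 genes were called in every setting tried. The replicate block called *Lhx2* in proliferative against resting, left 2 of 3 genes over the 4 groups (not *Sall1*) and changed no other call. Directions turned only for values near 0. *Sall1* in proliferative against resting became 0.012 with a pseudocount of 1 and 0.0084 by the median of ratios. Without a library, *Sall1* ranged from -0.78 to 0.60 in proliferative against resting, from -0.75 to 0.67 in hypertrophic against proliferative and from -0.77 to 0.52 in hypertrophic against resting, *Alx4* from -0.67 to 0.053 in hypertrophic against resting and from -0.48 to 0.14 in *aadd* against resting, and *Msx2* from -0.26 to 0.18 in *aadd* against resting. The cause was not tested. Depth limits *Sall3*, *Sall4* and *Msx1*, with at most 16 reads in a library.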
